A study of Mus musculus with 4 samples.

Results

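The 9 oocyte genes of the mouse Nlrp4, Nlrp9 and Nlrp14 groups were examined in zygotes: Nlrp4a, Nlrp4b, Nlrp4c, Nlrp4e, Nlrp4f, Nlrp9a, Nlrp9b, Nlrp9c and Nlrp14. They were chosen by name from the deposited count table, and all 9 were among its 55291 features. RNA-seq was done on 4 zygote samples, with 1 sample in each group and 2 count columns per sample, here called libraries 1 and 2. In the first experiment zygotes injected with an MO against H3.3 were set against an MO control. In the second, zygotes injected with H3.3 S31A were set against their own S31A control. MO is not explained in the labels; in injected embryos it usually means a morpholino, an antisense oligonucleotide. S31A follows the standard way of writing an amino acid change, here serine to alanine. The sources used here do not give what either control received, nor the strain and age of the mice.

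NLRP proteins are cytoplasmic proteins with an amino-terminal pyrin domain, a central nucleotide-binding NACHT domain and a carboxy-terminal run of leucine-rich repeats. Some, such as NLRP3, build inflammasomes in immune cells. Another branch has multiplied in rodents and is transcribed mainly in the growing oocyte, so the fertilised egg inherits its mRNA and protein before the embryo's own genome is active. The best known of that branch is Nlrp5 (Mater), a subunit of the subcortical maternal complex that early cleavage depends on. Stored mRNAs of this kind are degraded as the embryo takes over, and the series asks how maternal H3.3, the histone variant placed on chromatin outside replication, acts at that time.

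Of the 9 genes, 8 lie on chromosome 7 and Nlrp4f lies on chromosome 13. In mm10, Nlrp9c (26322473 to 26403700), Nlrp4a (26435113 to 26476142) and Nlrp9a (26535023 to 26575615) are neighbours, with gaps of 31.4 kb and 58.9 kb between them. Nlrp4c (6045161 to 6105150), Nlrp4b (10687789 to 10730168), Nlrp9b (19991465 to 20073306) and Nlrp4e (23301192 to 23362277) stand farther up the chromosome. Nlrp14 (107166990 to 107198102) is alone on its far side, and Nlrp4f spans 65177111 to 65205977 of chromosome 13. All 9 are annotated as protein coding and had the same coordinates in GENCODE M21.

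The copies are close relatives, which bears on how well short reads can be assigned to them. Below is the 60-base stretch of coding sequence with the most positions alike in all 9 genes, 28 of 60. Capitals mark those positions, coordinates are mm10 in the longest coding transcript of GENCODE M21, and each stretch lies in a coding exon.
Nlrp4a, exon 4 of 11, chr7:26449706-26449765, plus strand: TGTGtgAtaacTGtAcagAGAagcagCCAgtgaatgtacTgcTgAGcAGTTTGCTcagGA
Nlrp4b, exon 4 of 9, chr7:10714593-10714652, plus strand: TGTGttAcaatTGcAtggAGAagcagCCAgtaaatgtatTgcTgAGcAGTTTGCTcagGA
Nlrp4c, exon 3 of 10, chr7:6065838-6065897, plus strand: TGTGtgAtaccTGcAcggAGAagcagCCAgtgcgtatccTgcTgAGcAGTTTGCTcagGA
Nlrp4e, exon 2 of 9, chr7:23320826-23320885, plus strand: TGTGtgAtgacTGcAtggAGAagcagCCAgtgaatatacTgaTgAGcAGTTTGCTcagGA
Nlrp4f, exon 3 of 10, chr13:65195037-65195096, minus strand: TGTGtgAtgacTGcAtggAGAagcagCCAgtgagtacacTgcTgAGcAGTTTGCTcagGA
Nlrp9a, exon 3 of 10, chr7:26557677-26557736, plus strand: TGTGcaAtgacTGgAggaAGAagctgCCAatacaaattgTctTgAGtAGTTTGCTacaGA
Nlrp9b, exon 3 of 10, chr7:20023558-20023617, plus strand: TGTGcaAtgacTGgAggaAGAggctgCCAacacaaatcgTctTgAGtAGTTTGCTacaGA
Nlrp9c, exon 2 of 9, chr7:26385375-26385434, minus strand: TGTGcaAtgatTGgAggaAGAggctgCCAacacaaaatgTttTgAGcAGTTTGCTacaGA
Nlrp14, exon 3 of 11, chr7:107182130-107182189, plus strand: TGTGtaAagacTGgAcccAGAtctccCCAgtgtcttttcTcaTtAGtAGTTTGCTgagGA

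Even here the Nlrp4 genes differ from each other at scattered bases, the Nlrp9 genes share bases with each other that the Nlrp4 genes lack, and Nlrp14 matches neither group. Over whole coding sequences, identity was 69.6% to 93.6% among the 10 pairs of Nlrp4 genes and 82.8% to 87.5% among the 3 pairs of Nlrp9 genes. Between Nlrp4 and Nlrp9 genes it was 53.8% to 57.5%, and Nlrp14 shared 53.1% to 55.5% with the other 8. The closest pair was Nlrp4c with Nlrp4e at 93.6%, with an identical run of 120 bases, and Nlrp4b stood farthest from the other Nlrp4 genes.

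**Figure D1:**
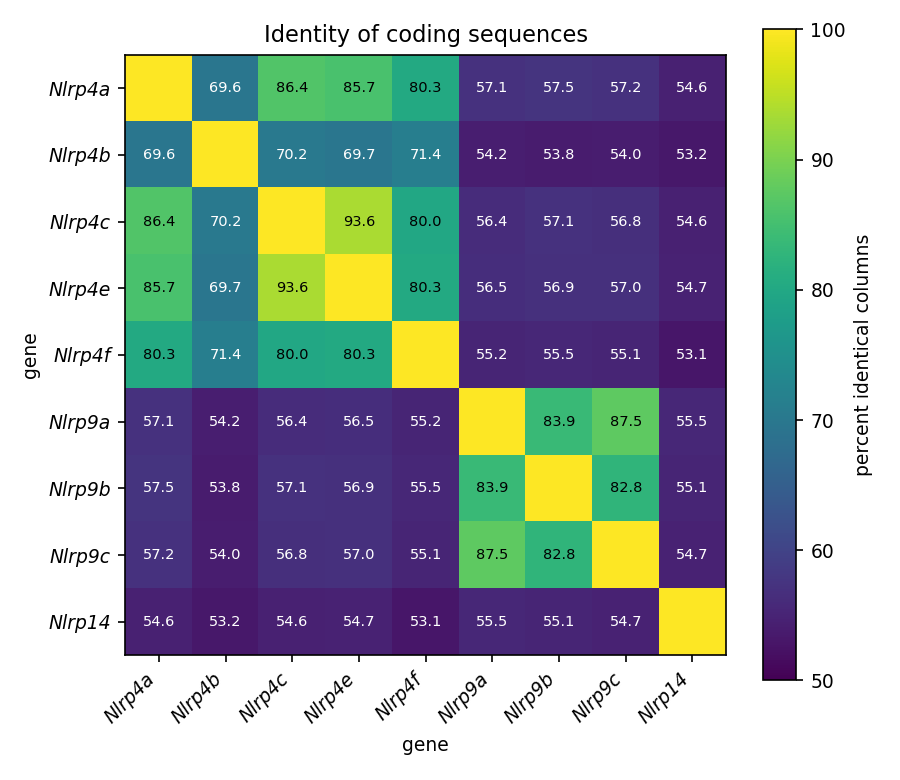
Percent of identical columns between aligned coding sequences for each pair of the 9 genes, which run in the same order along both axes. The Nlrp4 block (69.6% to 93.6%) and the Nlrp9 block (82.8% to 87.5%) stand out, and Nlrp14 is at 53.1% to 55.5% with every other gene.

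Of the 50-base windows of each transcript, 36.9% in Nlrp4e, 11.9% in Nlrp4c and 7.13% in Nlrp4f also occurred in a transcript of another gene. The shares were 6.54% in Nlrp9a, 6.22% in Nlrp9b, 4.99% in Nlrp9c and 3.11% in Nlrp4a, and 0 in Nlrp4b and Nlrp14. At 100 bases only Nlrp4e kept a large share, 11.5%, and the others were at 1.36% or less. Most of the Nlrp4e windows were shared with 5 predicted genes, Gm16443, Gm4541, Gm8486, Gm8685 and Gm8728. The first 4 had 0 counts in all 8 libraries and Gm8728 had 28 counts in all. Nlrp4f shared windows with Nlrp4g and Gm47180, which were abundant at 483 to 691 TPM and 999 to 1787 TPM (counts per gene length, scaled to the same total in every library). No source used here gives the read length or how multiply matching reads were counted, so Nlrp4e and Nlrp4c counts in particular are uncertain. Nlrp9b shares 136 exon bases with Gm18877, which had 0 counts.

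RefSeq promoter windows (GRCm38.p6, 250 bases before to 50 after a start site) were found for 8 of the 9 genes, 10 windows in all. Nlrp9a and Nlrp9c are shown, a pair chosen after its counts had been seen to follow each other most closely, as described further on. Their windows share an identical run of 106 bases, the only pair for which the run was measured, and 100 bases of it are printed with CAGGTG in capitals, an E-box sequence of the kind bound by basic helix-loop-helix factors.
Nlrp9a, chr7:26534905-26535004, plus strand, 118 to 19 bases before the start site: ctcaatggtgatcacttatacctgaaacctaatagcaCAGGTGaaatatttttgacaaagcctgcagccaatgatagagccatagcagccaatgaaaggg
Nlrp9c, chr7:26403763-26403862, minus strand, 162 to 63 bases before the start site: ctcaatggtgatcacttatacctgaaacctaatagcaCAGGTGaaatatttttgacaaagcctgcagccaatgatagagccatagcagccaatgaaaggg

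CAGGTG, searched on both strands, occurred in 3 of the 10 windows, those of Nlrp9a, Nlrp9b and Nlrp9c, against 20.2% of 32851 mouse promoter windows. The CAGGTG of Nlrp9a and that of Nlrp9c lie in the identical run printed above, so they are not separate occurrences. The start site of the Nlrp9b window lies 16558 bases inside the gene span of the count table. Its matches therefore need not describe the start of the gene as counted. TAATTG, a sequence bound by the oocyte homeobox factor Nobox, occurred in Nlrp9a and Nlrp9b (8% of all windows), and TAATTA in Nlrp9a alone (5.29%). TATAAA was found in Nlrp9b (13.6%) and CACGTG in none (7.15%). None of these motifs was in the windows of the Nlrp4 genes. The Nlrp4f window lies within the gene span, with its start site 261 bases inside. It therefore does not reach the sequence before the annotated start of Nlrp4f. A match describes the letters only.

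Library totals ran from 5661621 to 13233371 counts, with 11372 to 15156 features detected. CPM is the count scaled by depth and library composition. All 10 egg and zygote markers, among them Bmp15, Gdf9 and Zp3, reached 10 CPM in at least 1 library. Zp1 (8.62 CPM) and Zp3 (8.19 CPM) were below that in MO injected library 2, and Zp3 (8.80 CPM) also in MO control library 1. Cumulus and granulosa markers summed to 35.0 to 166 CPM, nearly all of it Cyp19a1, with 8 of 11 at 0 counts. The sperm, blood and oviduct lists, each taken alone, summed to at most 8.67 CPM in any library. In the MO injected sample H3f3b, the main H3.3 gene, had 2.30 and 10.5 CPM in libraries 1 and 2, and in the MO control sample it had 2199 and 1549.6 CPM. H3f3a, also an H3.3 gene, had 8.04 and 52.4 CPM in the MO injected libraries and 462 and 586 CPM in the MO control libraries. With S31A, H3f3b had 2438 and 2749 CPM in the injected libraries and 1453 and 1819 CPM in the controls, and H3f3a overlapped. The libraries of a sample differed widely: 39.8% of genes were at least 2-fold apart between the MO injected libraries and 24.8% between the MO control libraries, and 41.0% and 40.4% in the S31A injected and S31A control pairs. MO injected library 2 was nearer to MO control library 1 (24.1% of genes at least 2-fold apart) than to its own partner. Because each group is 1 sample, differences have no replicate check, and no test between groups was possible. The p-values given are over libraries, whose spread may be technical. In such bulk samples fewer embryos of a stage and less RNA per embryo cannot be told apart.

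All 9 genes were detected in every library, at very different levels. Per length, Nlrp4f was by far the most abundant at 1364 ± 308 TPM (SD over the 8 libraries of the 4 samples), and it ranked 94th of all features by mean TPM. In mouse, Nlrp4f is needed for normal female fertility and is tied to the subcortical maternal complex. Nlrp4a averaged 546 ± 84.0 TPM, Nlrp4b 405 ± 154 TPM and Nlrp9c 373 ± 88.2 TPM. Nlrp14, which mouse embryos need to pass the early cleavages, averaged 323 ± 211 TPM, followed by Nlrp9a at 267 ± 74.7 TPM, Nlrp9b at 213 ± 62.8 TPM and Nlrp4e at 183 ± 57.5 TPM. Nlrp4c was lowest at 14.2 ± 6.27 TPM, rank 5704.

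Neighbours in this order overlapped in their range over libraries in 7 of 8 cases, the exception being Nlrp4e (99.9 to 247 TPM) above Nlrp4c (4.89 to 25.3 TPM). Nlrp4f exceeded Nlrp4a within each of the 8 libraries, although their ranges touched because Nlrp4f was at 677 TPM in MO injected library 1. Nlrp4c and Nlrp4e are the closest pair by coding sequence and were the pair of neighbours farthest apart in level. The level of Nlrp4a was the most even, 1.6-fold between its lowest and highest library in TPM. Nlrp4c and Nlrp14 were the least even, at 5.18-fold and 4.93-fold.

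**Figure D2:**
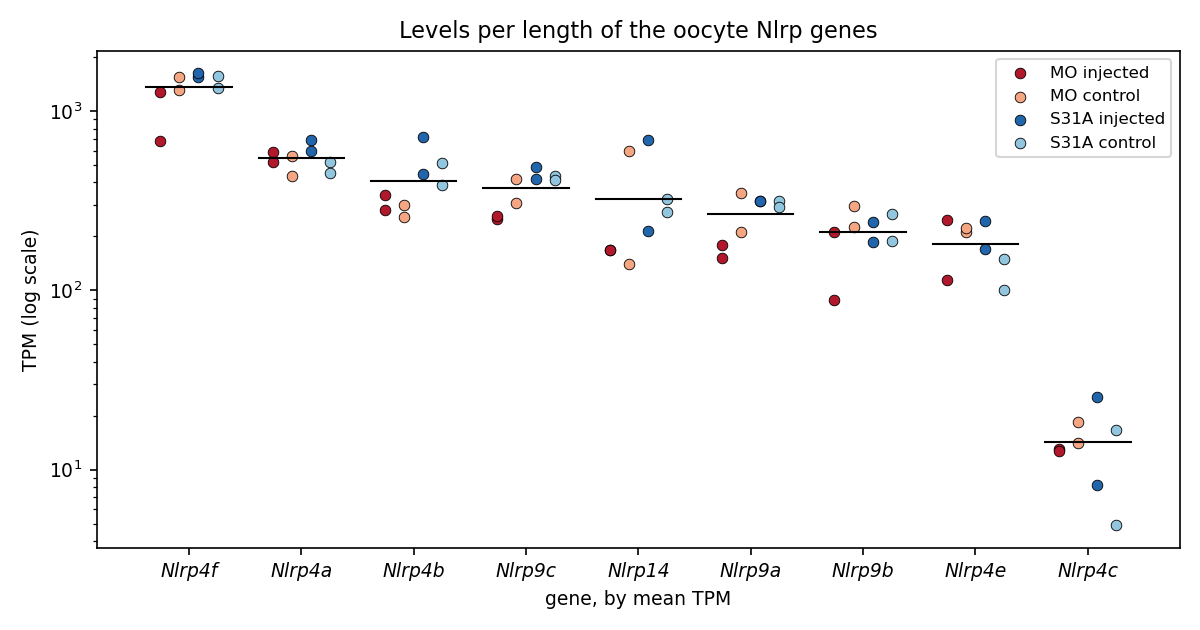
TPM on a log scale for each gene, ordered by mean; points are libraries coloured by group and bars are means over the 8 libraries. Nlrp4f leads at 1364 TPM, 7 genes lie between 183 and 546 TPM with overlapping ranges, and Nlrp4c is apart at 14.2 TPM.

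With MO injection, the Nlrp9 genes and Nlrp4f stood lower and Nlrp4a and Nlrp4b stood higher, all by less than 2-fold. Of the 9 genes, 2 were higher and 7 lower than in the MO control, with a median log2 ratio of -0.31, against 0.03 over the 8110 genes measured (10 CPM or more in either sample). Over those genes 52% were higher and 48% lower. None was at least 2-fold apart, against 23.8% of all measured genes, but that share was 12.7% among genes at 100 CPM or more, a level that 8 of the 9 exceeded. All 9 passed the filter. Their summed level was 4409 and 5028 CPM in the MO injected libraries and 5153 and 6292 CPM in the MO control libraries, a log2 ratio of -0.21 (95% interval -0.23 to -0.20, counting error only) with no overlap. Mitochondrially encoded genes took 3.47% and 4.99% of counts in the MO injected libraries and 5.55% and 5.23% in the MO control libraries. The number of features detected was 13159 and 13359 in the MO injected libraries and 15156 and 14895 in the MO control libraries, also with no overlap. The part of either in the levels of the 9 genes was not tested.

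**Figure D3:**
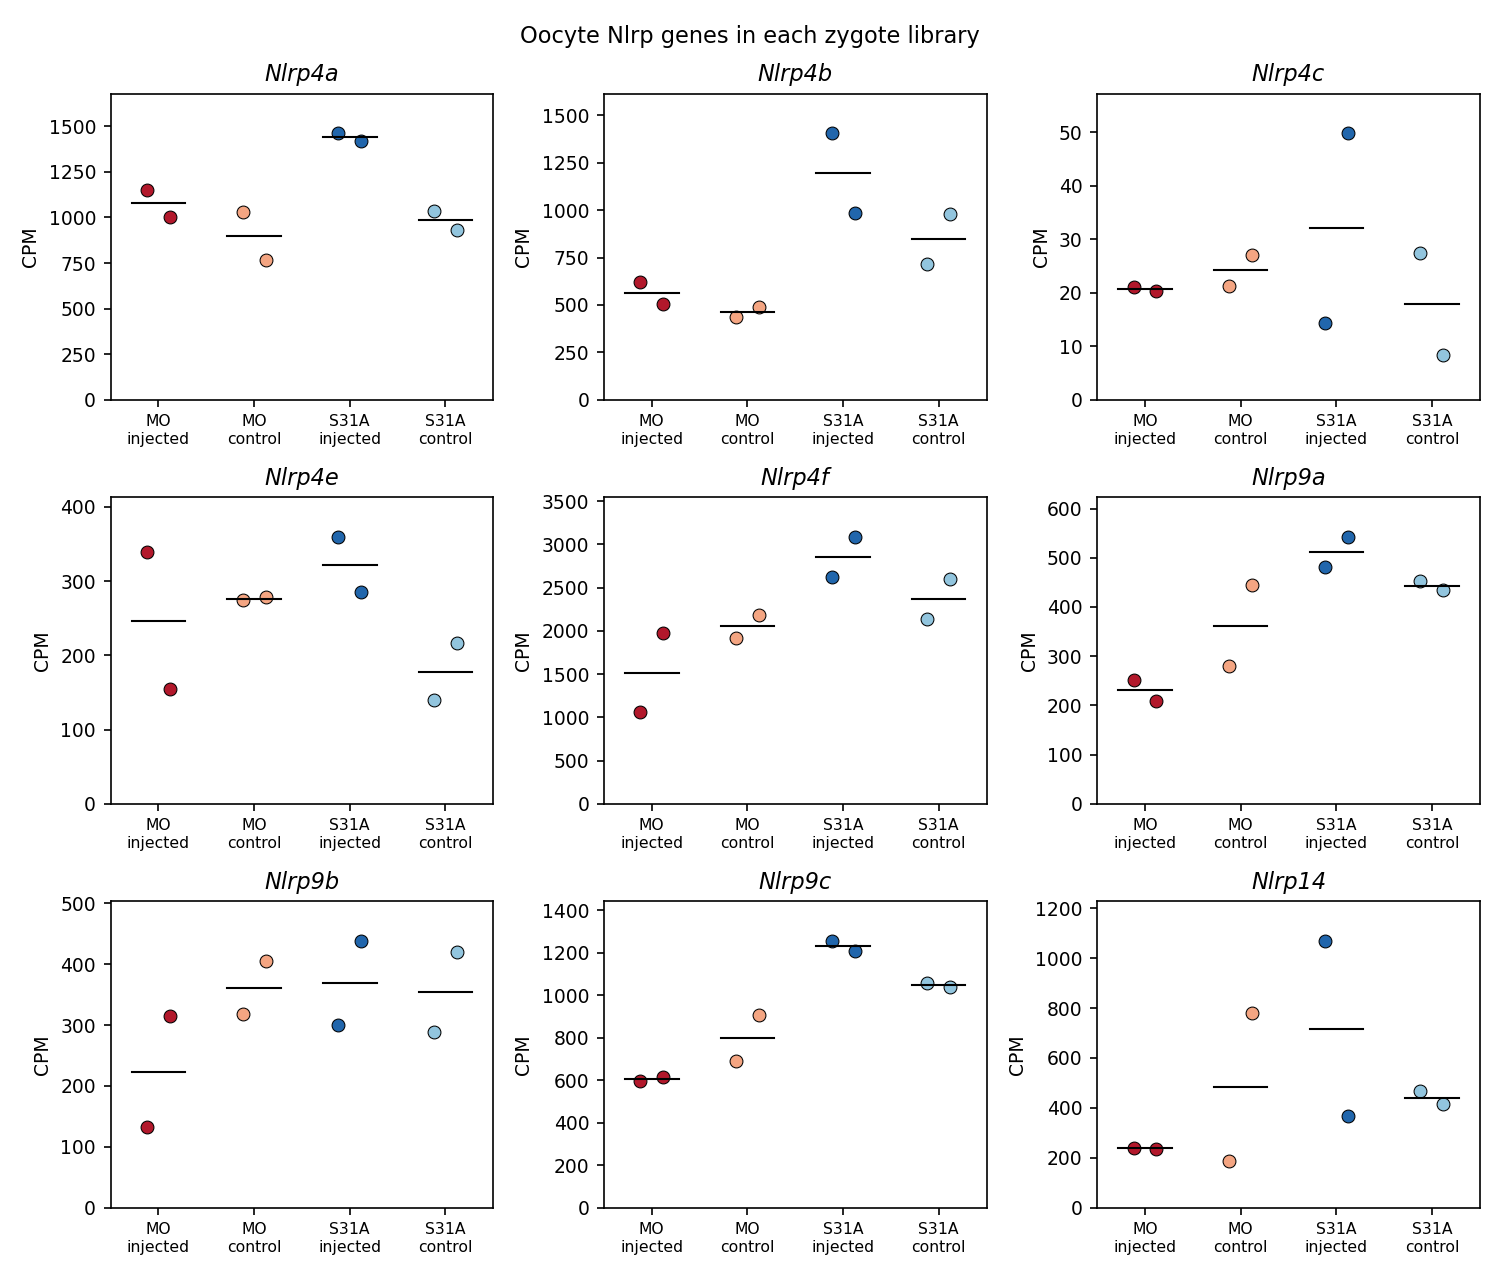
CPM of each gene in each library, with 1 panel per gene; the left point of a pair is library 1, the right point library 2, and the bar is their mean. Nlrp9a, Nlrp9b and Nlrp9c are below the MO control in both MO injected libraries, and Nlrp4a, Nlrp4b, Nlrp4e, Nlrp4f, Nlrp9a and Nlrp9c are above the S31A control in both S31A injected libraries.

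The 3 Nlrp9 genes all stood lower. Nlrp9a had 251 and 209.8 CPM in the MO injected libraries, against 279 and 445 CPM in the MO control (log2 ratio -0.51, interval -0.56 to -0.45). Nlrp9c had 597 and 614 CPM, against 691 and 909 CPM in the MO control (log2 ratio -0.31, interval -0.35 to -0.28). Nlrp9b, which in mouse intestine forms an inflammasome against rotavirus, had 132 and 315 CPM in the MO injected libraries, against 318 and 405 CPM in the MO control (log2 ratio -0.71, interval -0.77 to -0.66). For all 3 the injected libraries did not overlap the controls, although Nlrp9b missed overlap only narrowly. All 3 ratios stayed below 0 when single libraries were left out, but their size depended on them. Without MO control library 2 the log2 ratio was -0.20 for Nlrp9a and -0.14 for Nlrp9c, and without MO control library 1 it was -0.89 for Nlrp9a and -0.55 for Nlrp9c. For Nlrp9b it was -1.45 when MO injected library 2 was dropped and -0.19 when its partner was, so the lower mean rests largely on library 1. Together with Nlrp4c, 4 of the 9 genes were lower without overlap, against 21.3% of all measured genes. Nlrp4c, like Nlrp9b, was counted on a near tie. Its higher injected value was 21.1 CPM and its lower control value 21.3 CPM, both from library 1. Its log2 ratio turned to 0.02 without MO control library 2. The count of 4 therefore rests in part on near ties, and no excess over all measured genes can be read from it.

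Among the Nlrp4 genes the direction was mixed. Nlrp4f had 1058 and 1972 CPM in the MO injected libraries, against 1917 and 2190 CPM in the MO control (log2 ratio -0.44, interval -0.47 to -0.42). MO injected library 2 was within the range of the controls, so the lower mean rests on library 1, without which the log2 ratio was -0.07. Nlrp4b had 621 and 504 CPM, against 434 and 489.6 CPM in the MO control (log2 ratio 0.38, interval 0.34 to 0.42), the 1 gene higher without overlap (19.2% of all measured genes). Nlrp4a overlapped, with 1149 and 1003 CPM in the MO injected libraries and 1029 and 767 CPM in the MO control libraries (log2 ratio 0.29). Nlrp4e, whose knockdown in mouse stops preimplantation development, was the least settled: the MO injected libraries had 339 and 154 CPM and the MO control libraries 274 and 279 CPM. Its injected libraries lay on either side of the controls (log2 ratio -0.02). Nlrp4c had 21.1 and 20.3 CPM, against 21.3 and 27.1 CPM in the MO control (log2 ratio -0.13, interval -0.33 to 0.07). Leaving out single libraries gave log2 ratios of 0.11 to 0.45 for Nlrp4b, 0.09 to 0.55 for Nlrp4a, -0.87 to 0.26 for Nlrp4e and -0.34 to 0.02 for Nlrp4c.

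Nlrp14 gave the lowest ratio with MO injection and the widest gap between libraries. It had 240.1 and 236 CPM in the MO injected libraries, against 189 and 781 CPM in the MO control, so the injected libraries agreed closely and the controls were 4.14-fold apart. The log2 ratio of the sums was -0.78 (interval -0.83 to -0.73). It was -1.67 without MO control library 1 and 0.39 without MO control library 2, so no direction can be given.

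In edgeR's quasi-likelihood test, run over libraries, none of the 9 genes was called between MO injected and MO control (smallest Benjamini-Hochberg adjusted p = 0.825), nor was any of the 8110 genes tested (0%). At an unadjusted p under 0.05, edgeR had 429 genes (5.29%), none of the 9 among them. At an adjusted p under 0.05, DESeq2 called 54 genes (0.666%), again none of the 9. Without MO injected library 2, Nlrp9b alone of the 9 was at least 2-fold lower, and without MO control library 2 the median of the 9 was -0.0097. Egg and zygote markers summed to 11455 and 5441 CPM in the MO injected libraries and to 7028 and 8487 CPM in the MO control libraries, which overlap. In MO injected library 1 most of that sum was Gdf9 (4674 CPM, 490 in library 2) and Zar1 (3636 CPM, 459 in library 2). Of the 10 markers, Bmp15 and Dppa3 were lower without overlap, as was the sum of the 9 genes, and the others overlapped.

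With S31A injection, all 9 genes stood higher than in the S31A control, by 1.02-fold to 1.83-fold, although Nlrp9b, at no measurable difference, turned to a log2 ratio of -0.08 when libraries were scaled by total counts alone, to -0.28 without S31A injected library 2 and to -0.19 without S31A control library 1. Over all 8191 measured genes 51% were higher and 49% lower. The median log2 ratio of the 9 genes was 0.52, against 0.02 over all measured genes, and it was 0.23 to 0.45 when single libraries were left out. None was at least 2-fold apart, against 30.3% of all measured genes and 10.2% of those at 100 CPM or more. In 6 of the 9 both injected libraries lay above both control libraries, against 19.8% of all measured genes. That share was not taken among genes at 100 CPM or more. The summed level was 8962 and 8375 CPM in the S31A injected libraries and 6326 and 7045 CPM in the S31A control libraries, with no overlap (log2 ratio 0.38, interval 0.37 to 0.39).

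Nlrp4a, 1 of the 6, had libraries 1.03-fold apart in the S31A injected sample and 1.11-fold apart in the S31A control. It had 1460.5 and 1419.7 CPM in the S31A injected libraries, against 1036 and 932 CPM in the S31A control (log2 ratio 0.56, interval 0.53 to 0.58). Under every alternative run its ratio stayed between 0.46 and 0.66. Nlrp4e had 359 and 285 CPM in the S31A injected libraries, against 139 and 217 CPM in the S31A control (log2 ratio 0.87, interval 0.81 to 0.93), the highest ratio of the 9. Its range over the alternatives was 0.62 to 1.27. Nlrp4b had 1404 and 983 CPM in the S31A injected libraries, against 715 and 981 CPM in the S31A control (log2 ratio 0.52), and only just missed overlap. Its log2 ratio was 0.16 without S31A injected library 1 and 0.82 without S31A control library 2.

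Nlrp4f, the most abundant, had 2623 and 3081 CPM in the S31A injected libraries, against 2141 and 2599 CPM in the S31A control (log2 ratio 0.25, interval 0.24 to 0.27). Here too the lowest injected library was barely above the highest control, and leaving out single libraries gave log2 ratios of 0.11 to 0.45. Nlrp9a had 481 and 541 CPM in the S31A injected libraries, against 452 and 434 CPM in the S31A control (log2 ratio 0.20), and Nlrp9c had 1254 and 1209 CPM, against 1059 and 1039.8 CPM in the S31A control (log2 ratio 0.24). With single libraries left out these ratios were 0.09 to 0.26 for Nlrp9a and 0.16 to 0.28 for Nlrp9c. Nlrp9b had 300.04 and 437 CPM, against 289 and 421 CPM in the S31A control (log2 ratio 0.02, interval -0.02 to 0.07). The libraries of each sample were 1.46-fold apart for Nlrp9b, far more than the samples were.

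Nlrp14 and Nlrp4c had high ratios that rested on single libraries. Nlrp14 had 1067 and 369 CPM in the S31A injected libraries, against 467 and 415 CPM in the S31A control (log2 ratio 0.79, interval 0.75 to 0.83). It was 1.25 without S31A injected library 2 and -0.30 without S31A injected library 1. Nlrp4c had 14.3 and 49.8 CPM in the S31A injected libraries, against 27.5 and 8.35 CPM in the S31A control, with the libraries of both samples over 3-fold apart. Its log2 ratio was 0.77, and -0.32 without S31A injected library 2. It was 1.45 without S31A injected library 1 and 1.86 without S31A control library 1.

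None of the 9 genes was called by edgeR's quasi-likelihood test, run over libraries (smallest Benjamini-Hochberg adjusted p = 0.802), which called 2 of the 8191 genes (0.0244%). At an unadjusted p under 0.05 edgeR had 490 genes (5.98%), Nlrp4a among them. At an adjusted p under 0.05 DESeq2 called 583 genes (7.12%), including Nlrp4a with an adjusted p of 0.00541. Egg and zygote markers summed to 13026 and 11073 CPM in the S31A injected libraries and 9019 and 8986 CPM in the S31A control libraries, a sum carried by Bmp15, Gdf9 and Zar1. Of the 10 markers, Bmp15, Zar1 and Dppa3 were higher without overlap, Npm2 and Zp2 were lower without overlap, and the other 5 overlapped. Mitochondrially encoded genes took 7.13% and 9.59% of counts in the S31A injected libraries and 9.65% and 10.4% in the S31A control libraries. The part of either in the levels of the 9 genes was not tested.

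**Figure D4:**
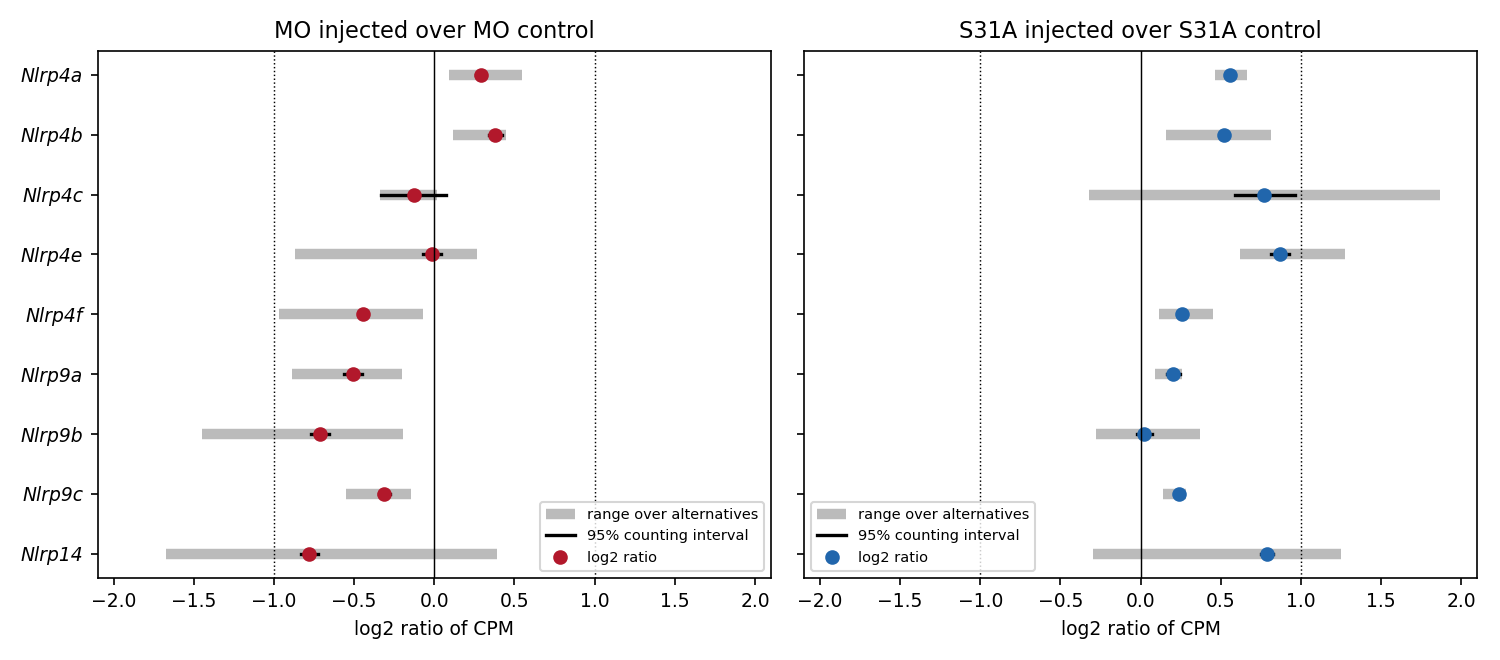
The log2 ratio of CPM for each gene in both experiments, with its 95% counting interval (black, often hidden by the point) and its range over the alternative settings, leaving out single libraries included (grey); dotted lines mark 2-fold. No point passes 2-fold, and the grey ranges of Nlrp14 run from -1.67 to 0.39 with MO and from -0.30 to 1.25 with S31A.

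Both experiments have their own control, so the S31A ratio minus the MO ratio could be formed from 4 separate samples. It was positive for all 9 genes, against 49% of the 7320 genes measured in both experiments, with a median of 0.71 for the 9 and -0.02 over all. From the summed samples Nlrp14 alone reached 2-fold (log2 difference 1.57), as did 17.2% of all genes in that direction. Nlrp4c (0.90), Nlrp4e (0.88), Nlrp9b (0.73), Nlrp9a (0.71) and Nlrp4f (0.70) followed, and Nlrp9c (0.55), Nlrp4a (0.27) and Nlrp4b (0.14) differed least. These values rested on single libraries in several genes. In edgeR's fit on all 8 libraries the log2 difference was 1.72 for Nlrp14, 1.05 for Nlrp4c and 0.9998 for Nlrp4e, so there Nlrp4c passed 2-fold too. For Nlrp14 edgeR's value was 0.30 without MO control library 2 and 0.75 without S31A injected library 1. The edgeR difference turned negative for Nlrp4b (-0.11) without S31A injected library 1 and for Nlrp4c (-0.13) without S31A injected library 2. The positive sign in all 9 therefore depends on those libraries. Nlrp4c reached 2.17 without S31A control library 1. Other genes passed 2-fold only when a library was left out, among them Nlrp4e (1.68) without MO injected library 1 and Nlrp9b (1.49) without MO injected library 2. An interaction term in edgeR's quasi-likelihood test, run over 8 libraries, called none of the 9 (Benjamini-Hochberg adjusted p from 0.814 to 0.996), and 3 of 8981 genes (0.0334%). DESeq2 called 146 genes (1.63%), none of the 9, and edgeR had 581 genes (6.47%) at an unadjusted p under 0.05, also none of the 9. A difference between the injections is therefore not shown for any of the genes.

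The controls of the experiments also differed from each other. They are the same samples used above, so these values are not independent of the ratios given there. The S31A control libraries had 11372 and 11768 features detected, and the MO control libraries 15156 and 14895. Mitochondrially encoded genes took 9.65% and 10.4% of counts in the S31A control libraries and 5.55% and 5.23% in the MO control libraries. The part of either in the differences below was not tested. Nlrp4b had 715 and 981 CPM in the S31A control, against 434 and 489.6 CPM in the MO control, with no overlap (log2 ratio 0.96, interval 0.92 to 0.995). Nlrp9c had 1059 and 1039.8 CPM in the S31A control, against 691 and 909 CPM in the MO control, also without overlap (log2 ratio 0.49). Nlrp4e lay on the other side, with 139 and 217 CPM in the S31A control libraries and 274 and 279 CPM in the MO control libraries (log2 ratio -0.57, interval -0.63 to -0.51). Leaving out single libraries gave 0.25 to 0.65 for Nlrp9c and -0.97 to -0.32 for Nlrp4e.

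For the other 6 genes the control libraries overlapped, with log2 ratios from -0.37 for Nlrp4c to 0.41 for Nlrp9a. Of the 9 genes, 7 were higher in the S31A control, against 52.4% of the 8266 measured genes (47.6% were lower), or 6 when scaled by total counts, where Nlrp9b turned to -0.005. The 2 genes higher without overlap compare with 21.2% of all genes, and the 1 lower without overlap with 25.2%. None was 2-fold apart, against 29.8% of all genes and 14% of those at 100 CPM or more. Without S31A control library 1, Nlrp4b (1.13) and Nlrp4c (-1.46) passed 2-fold, and without MO control library 2, Nlrp4b (1.02) and Nlrp14 (1.27) did. In edgeR's quasi-likelihood test, run over libraries, the smallest Benjamini-Hochberg adjusted p of the 9 was 0.355 and no gene of 8266 was called (0%). At an unadjusted p under 0.05 edgeR had 818 genes (9.9%), Nlrp4b among them. DESeq2 called 357 genes (4.32%), Nlrp4b among them (adjusted p = 0.0293).

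The make-up of the group held across libraries in outline. Nlrp4f gave 24.0% to 39.2% of the counts of the 9 genes, Nlrp4a 12.2% to 26.1% and Nlrp9c 12.2% to 16.7%. Nlrp14 gave 3.66% to 12.4%, high in MO control library 2 and S31A injected library 1. In MO injected library 1 Nlrp4a (26.1%) exceeded Nlrp4f (24.0%), which was not so in the other 7 libraries. Together the 9 genes took 0.435% to 0.863% of all counts.

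**Figure D5:**
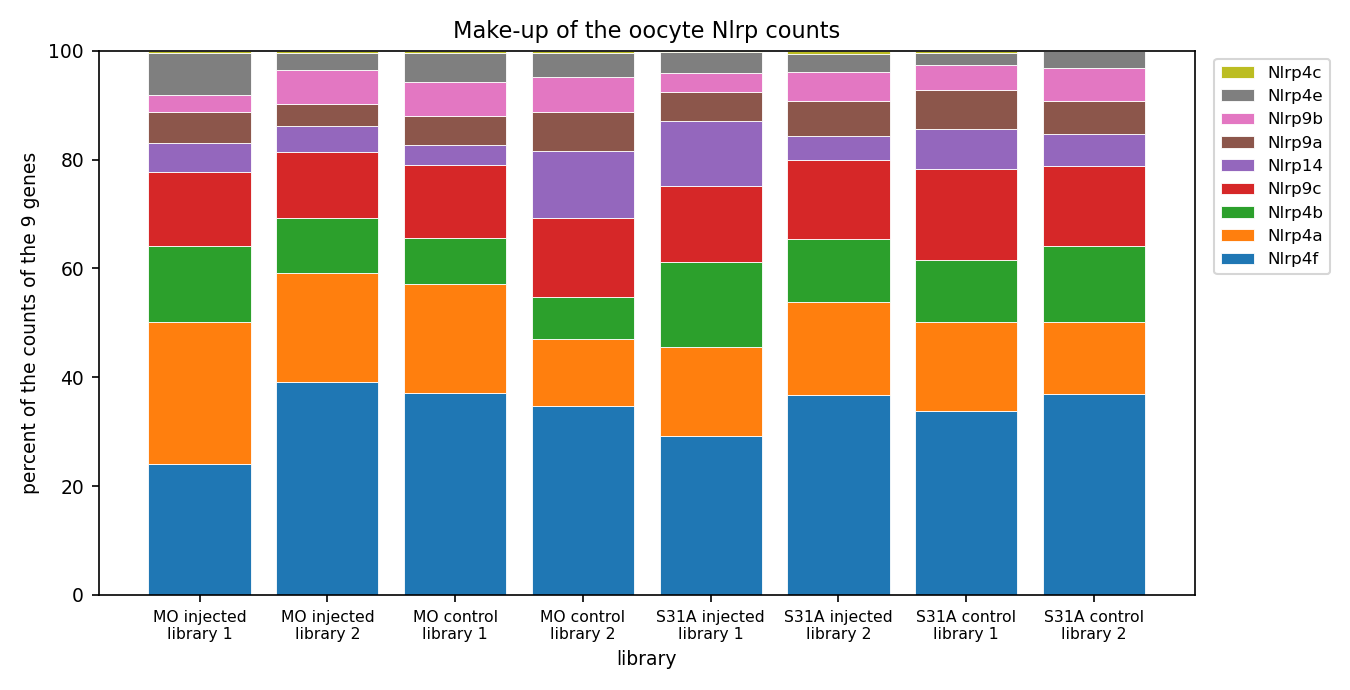
Percent of the summed counts of the 9 genes that each gene gave in each library, stacked in the order of mean TPM from the bottom. Nlrp4f gave the largest share in 7 libraries (29.3% to 39.2%), and in MO injected library 1 it gave 24.0% beside 26.1% for Nlrp4a.

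Across the 8 libraries, which share samples and differ in depth, Nlrp9a and Nlrp9c followed each other most closely (Pearson r = 0.96 of log2 CPM, n = 8 libraries). Their promoter windows were 71.2% identical over their whole length, although the run they share lies at different distances from their start sites. The closest windows of Nlrp4a and Nlrp4b were 72.4% identical, and those genes had an r of 0.67. That Nlrp4a window has its start site 501 bases inside the gene span. The Nlrp4a window at the start of the span was 51.9% and 50.4% identical to the Nlrp4b windows. The part of promoter likeness in these correlations was not tested. Nlrp9a and Nlrp9c are also the closest Nlrp9 pair in coding sequence, at 87.5%, and share 84 windows of 50 bases. Nlrp4f and Nlrp9b came next at r = 0.91, although they lie on different chromosomes and have 55.5% identity. Against the mean of the other 8 genes, Nlrp9c (r = 0.93) and Nlrp9a (0.89) followed it best, Nlrp4f stood at 0.73 and Nlrp14 at 0.61. Nlrp4e (0.15) and Nlrp4c (-0.004) did not follow it. The genes of the whole table most like the mean profile of the 9 were Ccdc115 (r = 0.96), Gnb4 (0.95), Rab21 (0.95), Hmgcs1 (0.95) and Gm6485 (0.94), with 30 of 7461 candidates above 0.9. Hmgcs1 encodes an enzyme of cholesterol synthesis, and Rab21 a small GTPase of endosomes. Gm6485 had a far wider range than the 9 genes, with 0.306 and 2.29 CPM in the MO injected and 8172 and 17053 CPM in the S31A injected libraries. It had 137 and 184 CPM in the MO control and 171 and 157 CPM in the S31A control libraries. Like H3f3b, it was lowest in the MO injected and highest in the S31A injected libraries. It was 1 of the 2 genes edgeR called over libraries with S31A. For the S31A ratio minus the MO ratio it was 1 of the 3 called, as was H3f3b.

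Other NLR genes were mostly silent or low. Of 21 listed, 6 were measured in the MO experiment, 5 in the S31A experiment and 6 between controls. Nlrp4g, annotated as a transcribed pseudogene, was the highest of these per length at 483 to 691 TPM. Its log2 ratio was -0.06 with MO and 0.03 with S31A. Nlrp5 had 336 and 164 CPM in the MO injected libraries and 196 and 525 CPM in the MO control libraries, which overlap. It had 290.5 and 237 CPM in the S31A injected libraries and 247 and 235 CPM in the S31A control libraries, which overlap too. At least 2-fold apart were Naip1, lower with MO but with overlapping libraries (log2 ratio -1.49), and Nod2, a sensor of bacterial cell wall fragments. Nod2 had 12.6 and 1.49 CPM in the S31A control, against 21.6 and 23.2 CPM in the MO control (log2 ratio -1.62). Nlrp3 had 0 counts in the MO injected and both S31A samples, and 23 counts in the MO control. None of 6 inflammasome genes (Pycard, Casp1, Casp4, Il1b, Il18 and Gsdmd) was measured in any comparison.

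Of the 7 listed subcortical maternal complex genes, 6 were measured. With MO, 3 were higher and 3 lower (median log2 ratio -0.11), and with S31A, 5 were higher and 1, Padi6, was lower (median 0.34). With MO, Ooep was at least 2-fold lower, at 133 and 219.5 CPM in the MO injected libraries and 236 and 750.3 CPM in the MO control (log2 ratio -1.33), and Tle6 was at least 2-fold higher with overlapping libraries (1.17). With S31A none was 2-fold apart. Uhrf1, a DNA methylation cofactor that binds NLRP14 in mouse oocytes, had 911 and 546 CPM in the S31A injected against 763 and 443 CPM in the S31A control, and a log2 ratio of 0.17 with MO, with overlap in both. Slc8b1, the mitochondrial sodium-calcium exchanger also linked to NLRP14, had 5 counts in all, below the filter.

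Of 19 listed maternal-effect and oocyte genes, 18 were in the table and 16 were measured. With MO, 6 of them passed 2-fold upwards and 2 downwards, and their median was 0.08. Named by library separation were the oocyte linker histone H1f8 (log2 ratio 2.13), Zar1l (-1.45) and the oocyte growth factor Bmp15 (-1.12). With S31A, Mos was 2-fold higher with overlapping libraries (1.30), and the histone chaperone Npm2 was lower without overlap (-1.71), with a median of 0.19. Between the controls Zp3 (1.74), H1f8 (1.47), Zar1 (1.37) and Zp1 (1.35) were higher in the S31A control without overlap and none was 2-fold lower. In neither experiment nor between controls did any of the 9 Nlrp genes reach differences of that size.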

How the data were processed

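The authors deposited 1 table of raw counts per gene, whole numbers without normalization, with gene lengths in bases, per the file headers. FastQC, Bowtie2, featureCounts and DESeq2 with mm10 are named in the submitters' processing notes. The sources used here give no versions, annotation release, strand setting or multi-mapping rule. Bowtie2 makes no spliced alignments, so junction reads may be lost. The labels' protocols name total RNA, PCR-amplified cDNA and an NEBNext Ultra II DNA kit.

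The libraries of a sample were summed, and edgeR 4.0.16 in R 4.3.3 gave TMM scaling. Log2 ratios of CPM used a prior count of 2 for genes that reached 10 CPM in either sample. Intervals are exact 95% Clopper-Pearson intervals and cover counting error only. Libraries of a sample differed beyond sampling noise (chi-square of 47.1 to 123 per degree of freedom) and no source says how they were made. edgeR's quasi-likelihood test and DESeq2 1.42.0 ran over libraries with Benjamini-Hochberg adjustment at 0.05. The edgeR steps were tested on simulated data. TPM used the deposited lengths, and likeness used log2 of CPM plus 1.

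Symbols of 96.38% of features were found in GENCODE M21, 95.68% with the same coordinates. Coding sequences were aligned with Biopython 1.88 and MAFFT 7.526. Transcript windows shared with another gene were counted where the pair shared at least 10.

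Members and lists were chosen with earlier results of these data known. Named genes were the 9 members, list genes at least 2-fold apart with all libraries of 1 sample on 1 side (up to 4 per list), the 5 genes most like the mean profile and the H3.3 genes. Naip1, Tle6, Mos, Nlrp3, Nlrp4g, Nlrp5, Uhrf1 and Slc8b1, the features that share windows and the markers were named after their values were seen. Alternatives were other scalings, filters, prior counts, models and leaving out each library. The share of genes 2-fold apart at 100 CPM was added after seeing the data. Shares of genes higher, lower or without overlap were taken over all measured genes only.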

Additional observations from a re-analysis of the deposited data

How the results depend on the processing

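With single libraries left out, the number of the 9 genes at least 2-fold apart ran from 0 to 1 with MO, was 1 in each case with S31A, and ran from 0 to 2 between controls. Their median log2 ratio ran from -0.55 to -0.0097 with MO, 0.23 to 0.45 with S31A and 0.034 to 0.36 between controls. At a filter of 50 CPM, which Nlrp4c fails, the S31A median was 0.39. Other scalings, filters, prior counts and the mean of log2 CPM left no gene at 2-fold in the 3 comparisons. Total counts alone moved all MO ratios by -0.11. The counts of genes called over libraries were unstable. For MO against control, edgeR called 0, DESeq2 54, a fit on all 8 libraries 3 and a 50 CPM filter 3, and leaving out libraries gave 0 to 700 (23 when MO injected library 1 was dropped, 700 when library 2 was). With S31A, edgeR called 2, DESeq2 583, the fit on all libraries 4 and the 50 CPM filter 5, with 0 to 2 on leaving out libraries. Between controls, edgeR called 0, DESeq2 357 and the 50 CPM filter 85, and leaving out libraries gave 0 to 833. For the difference of the ratios, edgeR called 3 and DESeq2 146, with 1 to 4 on leaving out libraries. The causes were not tested. The library number as a replicate block gave 0, 2, 0 and 3 calls in those comparisons, the same counts as without it. The order of levels had 1 of 8 neighbour pairs apart with or without length. With 1 sample in each group, depth does not limit the 9 genes, each with 361 counts or more in a sample, as much as the gaps between libraries do.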
